A study of Homo sapiens with 2 samples.

Results

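The genes described here are components of the WNT and NOTCH signalling pathways in SK-ES1. This established line was derived from an Ewing sarcoma, a tumour driven by the fusion transcription factor EWSR1-FLI1. A list of 41 genes, 29 of WNT and 12 of NOTCH, was matched by current or older symbol to the probes of an Illumina expression BeadChip. A gene was kept where any of its probes passed a detection p-value limit of 0.01 in wild type or adapted cells, which left 32 genes (21 of WNT and 11 of NOTCH) of 10194 detected genes in all. The comparison was between wild type SK-ES1 cells and a radiation-adapted derivative of the same line, whose short label carries the value 4 Gy. The labels do not describe the irradiation. Each group held 1 array of total RNA, so no value below has a replicate check and none has a test or a p-value. The comparison asks how the adapted cells differ from the wild type cells in these genes.

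WNT proteins are lipid-modified in the secreting cell, carried to the surface, and bound there by a Frizzled receptor with an LRP co-receptor. Dishevelled proteins then restrain the destruction complex of APC, AXIN and GSK3, so that beta-catenin accumulates and works with TCF/LEF factors on target genes. NOTCH receptors are bound by ligands of the Jagged and Delta families on a neighbouring cell and are cut by proteases, and the released part joins RBPJ and Mastermind-like proteins to switch on HES and HEY repressors. In Ewing sarcoma both pathways have been studied for their interplay with the fusion.

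The 2 arrays were alike in depth of detection. Of 47323 probes, 33.6% were detected in wild type and 32.5% in adapted cells, and the log2 signals of 9158 genes detected on both had a Pearson r of 0.969 across genes, which are not independent replicates. The median raw signal of undetected probes was 128.9 for wild type and 131.0 for adapted cells, which gives the level of background below. Of 15 Ewing sarcoma markers 12 were detected, CD99 and NKX2-2 among them. By their brightest probes 11 of these 12 were higher in adapted cells, and the median log2 ratio was 0.44. NKX2-2 was lower, at -0.68. Detection was lower for markers of other cells, with 6 of 10 for fibroblasts, 2 of 9 for epithelium, 2 of 9 for leukocytes and 1 of 7 for endothelium. PTPRC, PECAM1, VWF and CDH1 were not detected on either array. The fibroblast markers had a median log2 ratio of 0.23, and their part in the ratios below was not tested. By their brightest probes COL1A2 was at 1.10 and DCN at -0.59. The other detected probe of COL1A2 gave -0.06, while those of DCN gave -0.67 and -0.49. In bulk RNA, fewer cells of a type and less RNA per cell cannot be told apart.

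Ratios are given as log2 of normalized signal, radiation-adapted minus wild type, for the brightest probe of each gene, and a fold is the same ratio on the linear scale. Signals of different genes come from different probes and are not set against each other. The only repeat of a ratio is another probe of the same gene on the same arrays. Between the 2 brightest detected probes of 2568 genes the log2 ratios differed with an SD of 0.57 in the dimmest 856 genes (mean log2 signal up to 7.42), 0.44 in the next 856 and 0.37 in the brightest 856 (from 8.88). This spread covers probe and transcript differences, not the spread between cultures.

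The kept WNT genes had mostly higher signals in the radiation-adapted cells, by small amounts. Of 21 kept WNT genes, 17 were above 0 and 4 below, with a median log2 ratio of 0.32, compared with a median of -0.04 over all detected genes, 46.6% of which were above 0. The 17 WNT genes above 0 include WLS, whose other 4 detected probes were lower, and TCF7L2, detected in adapted cells alone. Of 11 kept NOTCH genes, 6 were above 0 and 5 below, with a median of 0.07. By measured ratio, 8 of the 32 genes exceeded 1.5-fold in the upward direction (DVL3, JAG2, TCF7L2, FZD1, SFRP1, HES1, ZNRF3 and CTNNB1) and none did so downward. Among all detected genes the shares were 12.5% upward and 9.58% downward. At 2-fold, DVL3 and JAG2 were higher and none was lower, against 4.02% and 2.07% of all detected genes, so the count at 2-fold is near the background. CTNNB1 lay just inside the 1.5-fold limit at 1.503-fold and HES4 just outside it at 1.498-fold lower. Without background correction the shares of all detected genes past 1.5-fold were 4.72% upward and 2.33% downward. Of the 32 genes, 2 (DVL3 and FZD1) then remained at 1.5-fold or more.

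**Figure D1:**
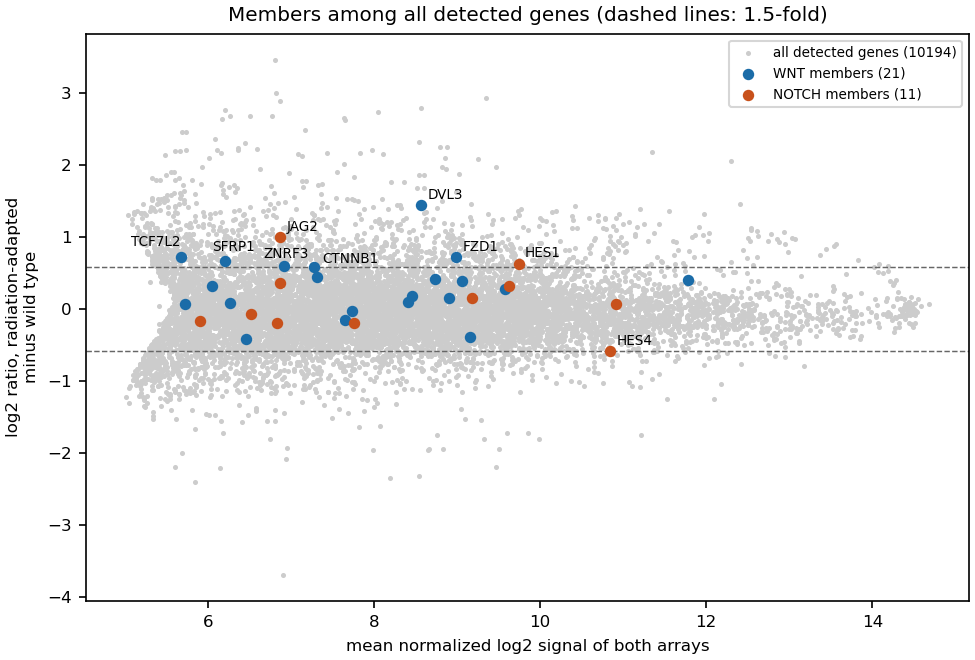
Log2 ratio (radiation-adapted minus wild type, vertical axis) against the mean normalized log2 signal of both arrays for all 10194 detected genes in grey, the 21 WNT members in blue and the 11 NOTCH members in orange, 1 array per group. The 8 members above the upper dashed line at 1.5-fold and HES4, at the lower line, are named.

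**Figure D2:**
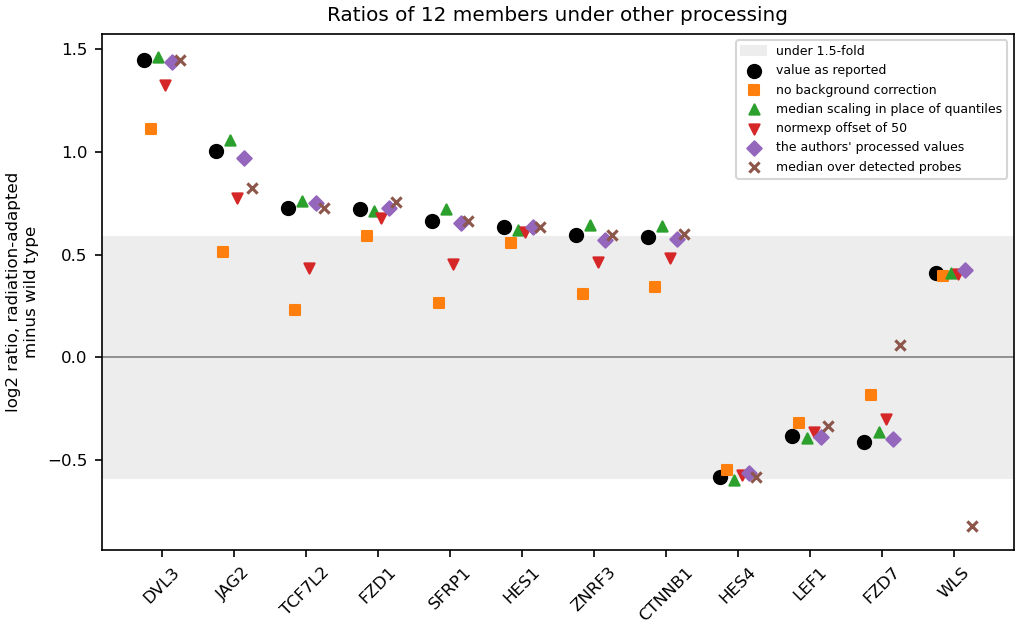
Log2 ratio (radiation-adapted minus wild type, vertical axis) of 12 members, with a black circle for the value as reported, other markers for 5 alternative ways of processing and a grey band for ratios under 1.5-fold. DVL3 stays between 1.11 and 1.46, JAG2 runs from 0.51 to 1.06, and WLS and FZD7 change side with the median over detected probes.

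Of the 7 Frizzled receptors among the kept members 5 were above 0 and 2 below, and 1 passed 1.5-fold upward. Of all detected genes, 46.6% were above 0 and 12.5% passed 1.5-fold upward. FZD1 had a log2 signal of 8.63 in wild type and 9.35 in radiation-adapted cells, a ratio of 0.72 (1.65-fold), and its other detected probe gave 0.79. FZD8 went from 8.53 to 8.94 (ratio 0.41) and FZD4 from 9.43 to 9.71 (0.28). FZD1 exceeded the probe-to-probe SD at its brightness by both probes, while FZD8 and FZD4, with a single detected probe each, were under it. FZD2 was at 8.36 and 8.45 (0.09), FZD6 at 6.21 and 6.30 (0.09) and FZD3 at 7.74 and 7.72 (-0.02). For FZD7, the receptor of the family best known from stem cells, the brighter probe was lower in the adapted cells (6.67 against 6.26, ratio -0.41) and the other was higher (0.54). The probes of FZD7 thus give no direction. FZD5 was not detected on either array.

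The LRP co-receptors, which pair with Frizzled and recruit AXIN to the membrane, were both slightly higher. LRP5 had log2 signals of 8.87 and 9.26 (ratio 0.39) and LRP6, a dim probe, 5.89 and 6.21 (0.32). ZNRF3, a ubiquitin ligase that removes Frizzled from the surface and is itself induced by WNT, was at 6.62 and 7.22 (0.60, 1.51-fold). RNF43, the partner of ZNRF3 in receptor removal, and NKD1, a feedback inhibitor that binds Dishevelled, were not detected. SFRP1, a secreted inhibitor that binds WNT proteins, was at 5.87 and 6.54 (0.66, 1.58-fold). All 4 detected genes of this group were higher in the adapted cells. LRP6 was under the probe-to-probe SD at its brightness and the others were slightly above it.

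The probes of WLS, the carrier that takes WNT proteins to the cell surface, disagreed by more than those of any other member. The brightest probe was higher in the radiation-adapted cells, with log2 signals of 11.58 in wild type and 11.99 in adapted cells (ratio 0.41). The other 4 detected probes were all lower, at -0.38, -0.82, -0.83 and -1.86. The last of these had a raw signal of 725.9 in wild type and 289.1 in adapted cells, far above the undetected level on both arrays. The annotation assigns this probe and the brightest one to the same transcript record and the remaining 3 to another record, so the disagreement does not follow the records. The positions of the probes within the gene were not used here. The direction of WLS is therefore unsettled, and its median over 5 detected probes was -0.82.

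**Figure D3:**
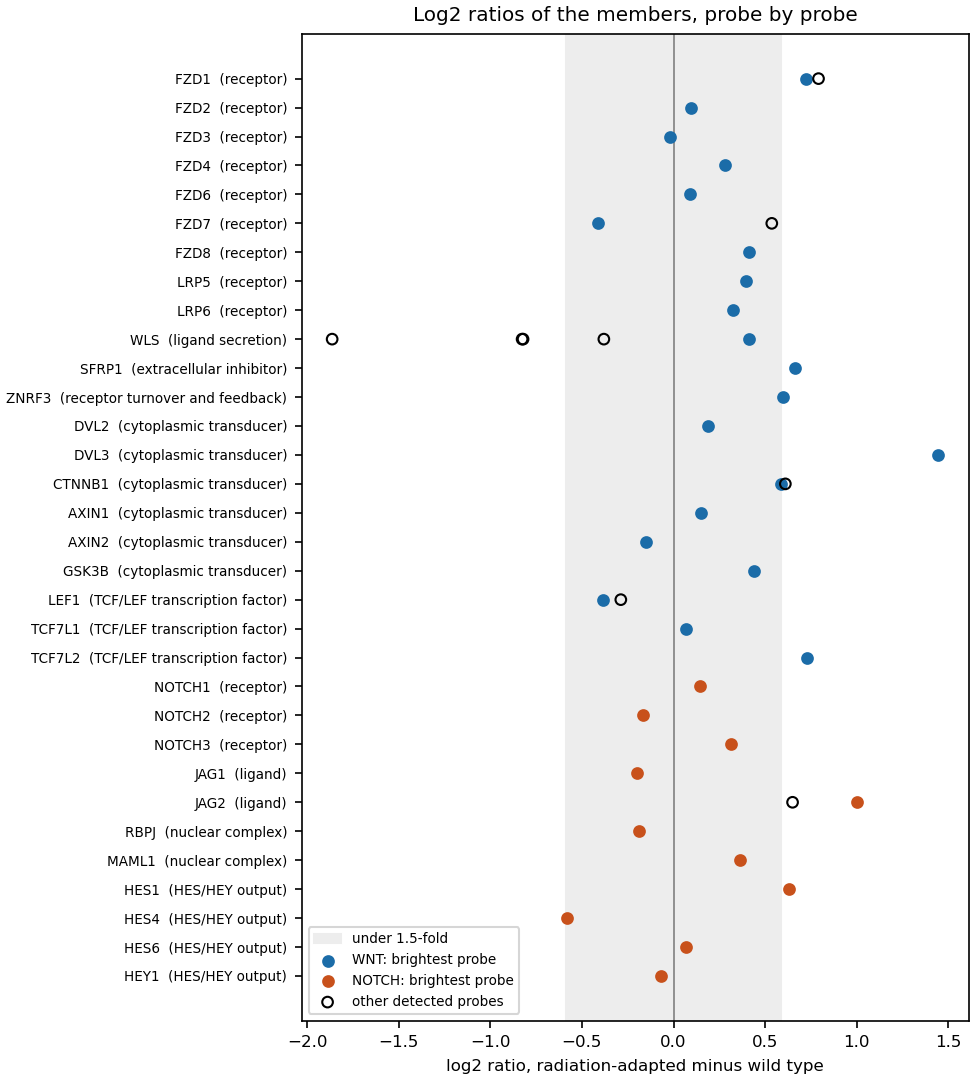
Log2 ratio (radiation-adapted minus wild type, horizontal axis) of each of the 32 detected members, with filled points for the brightest probe, open circles for other detected probes of the gene and a grey band for ratios under 1.5-fold. The WLS probes run from -1.86 to 0.41 and the FZD7 probes lie on both sides of 0, while both probes of FZD1, CTNNB1, JAG2 and LEF1 lie on the same side.

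Among cytoplasmic transducers, DVL3 had the largest difference of all members. DVL3, 1 of 3 Dishevelled genes, had a raw signal of 333.8 in wild type and 747.3 in radiation-adapted cells, or log2 signals of 7.84 and 9.29, a ratio of 1.45 (2.72-fold). It ranked 127 from the top among 10194 detected genes and was measured by 1 probe. DVL2 was at 8.37 and 8.55 (0.19), and DVL1 was not detected. The 2-fold difference was thus seen in DVL3 and not in DVL2, with DVL1 below the detection limit. The difference between the ratios of these genes was not tested.

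CTNNB1, which encodes beta-catenin, had 2 detected probes of 7. The brighter was at 6.99 in wild type and 7.57 in adapted cells (0.59, 1.503-fold), and the other gave 0.61. The agreement of the probes is closer than the SD of 0.57 between probes of dim genes. In the destruction complex, GSK3B, the kinase that marks beta-catenin for removal, was at 7.09 and 7.53 (0.44) and the scaffold AXIN1 at 8.82 and 8.97 (0.15). AXIN2, a scaffold that is also a general WNT target, was at 7.73 and 7.58 (-0.15). The ratios of all 3 were under the probe-to-probe SD at their brightness. APC and GSK3A were not detected. APC lay just outside the detection limit, with a detection p-value of 0.029 in wild type cells. Just inside it lay TCF7L1, with 0.0039 in wild type and 0.0065 in adapted cells.

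The TCF/LEF factors, which carry beta-catenin on DNA, did not share a direction. LEF1, itself a WNT target in many tissues, was lower in the adapted cells by both of its probes, with log2 signals of 9.34 and 8.96 (ratio -0.38) for the brighter and a ratio of -0.29 for the other. TCF7L1, mostly a repressor, was at 5.69 and 5.76 (0.07). TCF7L2 was detected in adapted cells alone, at 5.31 in wild type and 6.03 in adapted cells. Under this processing it was at least 1.40-fold higher when the wild type signal is set at the lowest detected one. TCF7L2 had a ratio of 0.23 without background correction. It was kept through the array where it is high, so its direction follows in part from the filter. AXIN2 and LEF1, both WNT targets, were lower and ZNRF3, another, was higher, so these members gave no common direction. Each of these ratios was under or close to the probe-to-probe SD at its brightness. TCF7 and PORCN had no probe named for them and were not analysed here.

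**Figure D4:**
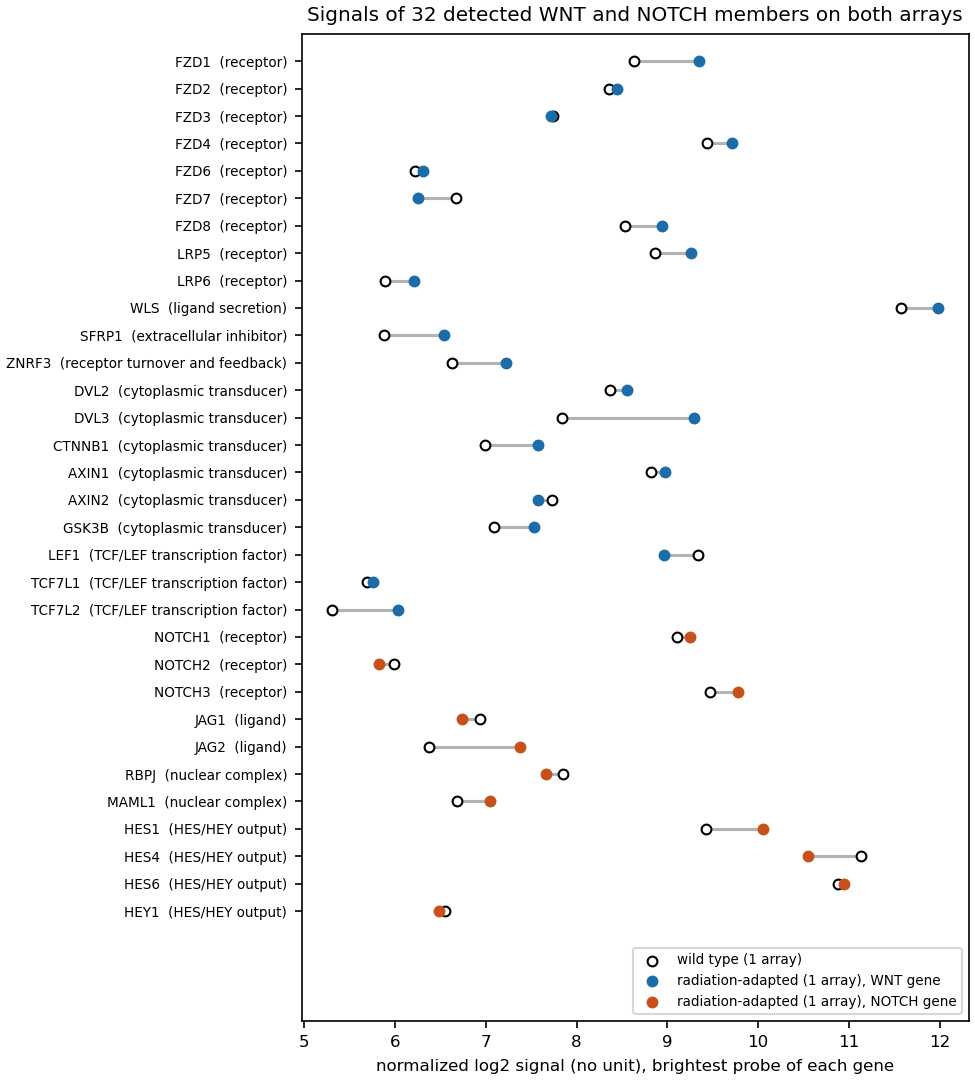
Normalized log2 signal (horizontal axis) of the brightest probe of each of the 32 detected members in wild type cells (open circles) and radiation-adapted cells (filled, blue for WNT and orange for NOTCH), 1 array each, joined by a line. The longest lines are those of DVL3 (7.84 to 9.29) and JAG2 (6.37 to 7.37), and levels of different genes are not comparable.

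NOTCH receptors differed little between the arrays. NOTCH1 had log2 signals of 9.10 in wild type and 9.25 in radiation-adapted cells (ratio 0.15), NOTCH3 9.47 and 9.78 (0.31), and NOTCH2, by the 1 detected probe of 3, 5.99 and 5.83 (-0.16). All 3 ratios were under the probe-to-probe SD. Among ligands, JAG2 was higher in the adapted cells, with log2 signals of 6.37 and 7.37 (1.003, 2.004-fold) by its brighter probe and a ratio of 0.65 by the other. The ratio of the brighter probe was 0.51 without background correction and 0.97 in the authors' processed values, both under 2-fold. The related ligand JAG1 was at 6.94 and 6.74 (-0.20), and DLL1 was not detected. Of the nuclear complex, RBPJ, the DNA-binding partner of the cleaved receptor, was at 7.85 and 7.66 (-0.19), and the co-activator MAML1 at 6.68 and 7.04 (0.36). JAG2 was the 1 NOTCH gene at 2-fold under the processing used here, and RBPJ and MAML1 lay on opposite sides of 0.

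The HES and HEY genes, which encode the repressors that NOTCH signalling induces, went in different directions. HES1 had a log2 signal of 9.42 in wild type and 10.06 in radiation-adapted cells (raw 788.5 and 1191.0), a ratio of 0.63 or 1.55-fold higher. HES4 had 11.13 and 10.55 (raw 2315.4 and 1627.0), a ratio of -0.58 or 1.498-fold lower, the lowest among the brightest probes of the 32 members. Both are bright, and both ratios exceeded the SD of 0.37 between probes of bright genes, but each rests on 1 probe. HES6, which opposes HES1 in neural cells of the mouse, was at 10.88 and 10.95 (0.07). HEY1, by the brighter probe, was at 6.55 and 6.48 (-0.07). Of 4 detected outputs 1 was past 1.5-fold higher, 1 was just under 1.5-fold lower and 2 were within 0.07 of 0.

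The 250 bases upstream of HES1 and of HES4 are shown because these 2 NOTCH outputs differed in opposite directions. They come from RefSeq on build GRCh38.p14 and are written 5′ to 3′ on the gene's strand. The HES1 window is chr3:194135898-194136147 on the plus strand and the HES4 window chr1:1000098-1000347 on the minus strand. Capitals mark matches, on either strand, to the RBPJ core TGGGAA or to the HES-box letters CACGCG or CACGAG; the letters CACGTG and the TCF/LEF cores CTTTGA or CTTTGT, also searched, have no match in either window.
HES1: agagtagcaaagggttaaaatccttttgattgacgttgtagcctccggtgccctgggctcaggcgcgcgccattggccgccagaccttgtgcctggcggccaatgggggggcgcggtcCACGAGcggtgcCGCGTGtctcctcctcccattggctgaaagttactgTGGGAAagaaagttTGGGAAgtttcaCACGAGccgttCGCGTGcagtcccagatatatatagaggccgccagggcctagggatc
HES4: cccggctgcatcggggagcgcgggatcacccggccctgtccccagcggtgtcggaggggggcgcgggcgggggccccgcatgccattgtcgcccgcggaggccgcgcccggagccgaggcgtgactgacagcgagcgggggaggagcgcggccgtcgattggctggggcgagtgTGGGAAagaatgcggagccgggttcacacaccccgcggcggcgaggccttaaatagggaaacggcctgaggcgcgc

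The HES1 window holds the RBPJ core at 84 and 70 bases before the start, and the HES4 window holds it once, at 76 bases. HES1 also holds CACGCG at 120 and 47 bases and CACGAG at 132 and 58 bases, and HES4 holds neither. Of 35116 promoter windows of the same length, 20.8% hold the RBPJ core, 9.72% CACGCG and 5.58% CACGAG, so these letters are common and a match is a description only. Of 11 members looked up, 8 had a window and were searched. No window of HEY1, AXIN2 or ZNRF3 was searched, so nothing is said of motifs there. LEF1 holds the RBPJ core at 197 bases and JAG2 holds CACGCG at 236 bases, while TCF7L2, at 1 of its 3 starts, and HES6 hold CTTTGT, at 133 and 126 bases. The windows of DVL3 and TCF7L1 have no match to the 6 motifs. CTTTGT is in 13.7% of all windows.

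The rest of the WNT pathway was listed by role, and of 108 further genes 62 were detected, with a median log2 ratio of 0.12. Of these 62, 34 were above 0 and 27 below, a more even split than among the kept members. Past 1.5-fold by measured ratio were 16 upward and 3 downward, beside 12.5% and 9.58% of all detected genes. Of the 16, DKK1, DACT1, FRAT1, PYGO1 and NRCAM were detected in adapted cells alone, and of the 3, PRICKLE1 in wild type cells alone, so their direction follows in part from the filter. Few ligands were seen: 3 of 23 WNT and R-spondin genes were detected, of which WNT5A, a ligand of the beta-catenin-independent arm, was on both arrays (log2 signals 10.08 and 10.00). R-spondins and their receptors LGR4, LGR5 and LGR6 were not detected. Among extracellular inhibitors APCDD1, a WNT-induced membrane inhibitor, was at 11.24 and 11.99 (ratio 0.75), DKK1 was detected in adapted cells alone and at least 1.86-fold higher, and SFRP2 was lower (9.02 and 8.40, ratio -0.63). SFRP1 and SFRP2, 2 related secreted inhibitors, thus lay on opposite sides.

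In the destruction complex and its regulators 10 of 19 detected genes were above 0 and 9 below, from CSNK2A2, a casein kinase subunit gene, at -0.53 to FRAT1 at 0.88. Beside 12.5% upward and 9.58% downward of all detected genes, 5 by measured ratio were past 1.5-fold upward and none downward. These were AMER1, an APC partner (0.71), the ubiquitin ligase subunit gene BTRC (0.67), the Dishevelled antagonist gene NKD2 (0.74), DACT1 and the GSK3 inhibitor gene FRAT1. The last 2 were detected in adapted cells alone, with bounds of 1.24-fold for DACT1 and 1.73-fold for FRAT1. Among all detected genes 46.6% were above 0 and 12.5% past 1.5-fold upward. Of 16 beta-catenin cofactors 12 were above 0 and 5 past 1.5-fold upward by measured ratio. The co-repressor genes TLE2 (0.81), TLE3 (log2 signals 6.42 and 7.42) and CTBP2 (0.69) were among these, while the related TLE1 (-0.51) and TLE4 (-0.44) were lower. JUP, a relative of beta-catenin, was at 0.62 with another probe at 0.09, and PYGO1, a beta-catenin partner detected in adapted cells alone, was at least 1.62-fold higher.

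Listed WNT target genes had a median of -0.02 over 7 detected. The survivin gene BIRC5 was lower by both probes (-0.63 and -1.51), MYC was at -0.04 and CCND1 at 0.48. NRCAM, detected in adapted cells alone, was at least 1.16-fold higher by its brighter probe. Its other detected probe gave a ratio of 1.31. Among receptors outside the members, FZD9 was at 0.12 and the orphan receptor gene ROR1 was at 0.62, with its other probe at 0.11. Of 6 detected planar polarity genes, which arrange cells within a sheet, CELSR2 (0.64) and VANGL2 (0.59) were at least 1.5-fold higher, and PRICKLE1 was detected in wild type cells alone and at least 1.61-fold lower.

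Of 58 further NOTCH genes 34 were detected, with a median of 0.05, and past 1.5-fold by measured ratio were 7 upward and 1 downward, beside the same 12.5% and 9.58%. Of the 7, HEYL was detected in adapted cells alone. DTX1, which encodes a ubiquitin ligase that binds NOTCH, was at 5.68 in wild type and 7.06 in adapted cells (ratio 1.38, 2.60-fold). That ratio rests on 1 probe, whose wild type signal was close to the lowest detected on that array (5.55). The related gene DTX3 was at 0.75. The ligand gene DLL3, which acts on NOTCH within the same cell, was at 8.57 and 9.24 (0.68). Genes for sugar transfer to the receptor or its cleavage had a median of 0.09, with 8 of 12 above 0 and 4 below. Past 1.5-fold upward were LFNG (0.75), FURIN (0.87) and POFUT1 (1.05). FURIN was measured by 1 probe that was dim in wild type cells (5.92). The fringe gene RFNG was at -0.36 and the protease gene ADAM10 at -0.24. The other probe of POFUT1 gave -0.23 and the other probe of RFNG gave 0.68, so the direction of each gene is uncertain. MIB2, a ligase that acts on NOTCH ligands, was lower by both probes (-0.60 and -0.73). The target HEYL was at least 1.18-fold higher, and HES5, HEY2 and NRARP were not detected. MYC, CCND1 and CTBP1 stood on both pathway lists, so the lists hold 93 different detected genes, of which 23 were past 1.5-fold upward and 4 downward by measured ratio, 6 and 1 of them detected on a single array.

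**Figure D5:**
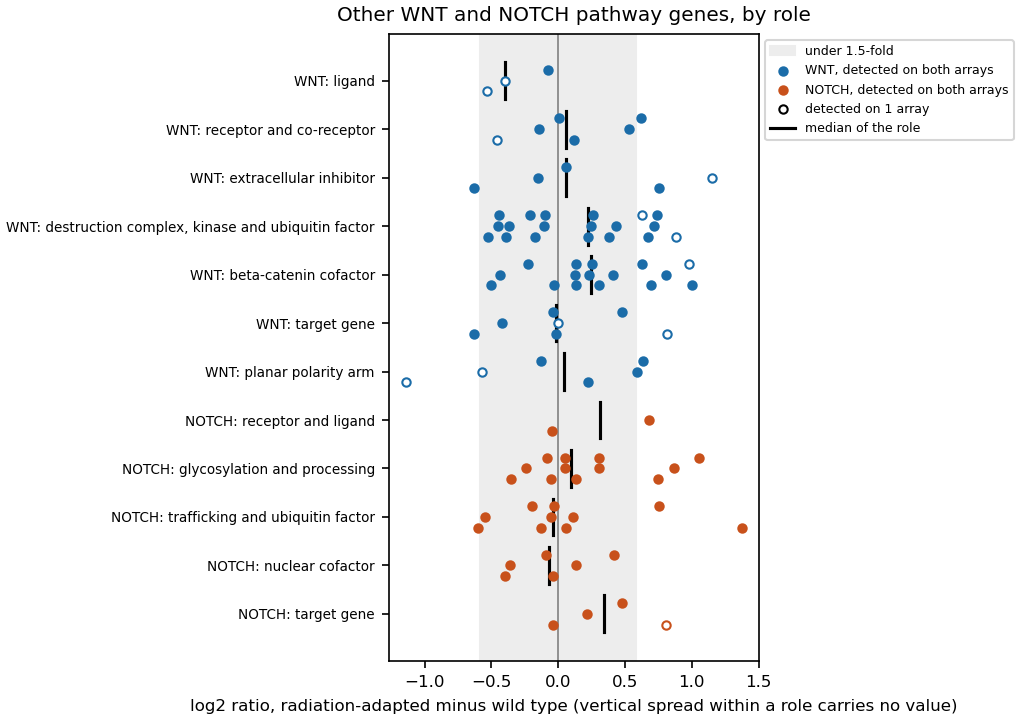
Log2 ratio (radiation-adapted minus wild type, horizontal axis) of other detected WNT (blue) and NOTCH (orange) pathway genes by role, 1 array per group, with open circles for genes detected on 1 array and black bars for the median of each role. The farthest points are DTX1 at 1.38 and PRICKLE1 at -1.14.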

How the data were processed

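Per the labels' protocols, Trizol RNA was amplified and biotin-labelled for Illumina arrays. The authors deposited an average bead intensity per probe, neither background-corrected nor normalized, and a detection p-value for each probe. They also deposited processed intensity values, whose making is not given in the sources used here. Raw signals were processed with neqc of limma 3.58.1 in R 4.3.3 (normexp fitted from the detection p-values, offset 16, quantiles, log2). The offset shrinks the ratios of dim genes. Later steps used Python 3.11.15, pandas 2.3.3, NumPy 2.4.6 and matplotlib 3.10.9. Of 47323 probes, 30113 had 1 gene symbol, updated through RefSeq; 8 had several and 17202 were not named here, and neither entered. For a gene detected on 1 array a bound is given. It is the bright signal over the gene's own signal on the other array or, if higher, the dimmest signal detected there. Such a bound, written as "at least", holds under this processing alone and makes no allowance for error. All kept members are named, as are other pathway genes at 1.5-fold or more; further genes were named after their values were seen. Members, lists and rules were chosen with earlier results of these data known. The normalization was run on simulated arrays in which only probes well above background were changed. That run does not cover the ratios of dim genes. With 1 array per group, array number limits precision.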

Additional observations from a re-analysis of the deposited data

How the results depend on the processing

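With 1 array per group there is no spread between cultures, and near-background signals limit the ratios of dim genes. The 32 member ratios were recomputed under 6 alternatives. Of 191 values, 185 moved by less than 0.33, the SD of a single probe's ratio, and no ratio of 1.5-fold or more changed sign. Part of the 191 could not move. Keeping only genes detected on both arrays leaves each ratio as it was. The median over detected probes cannot change the 26 members with 1 detected probe. The median of WNT members was 0.32, and 0.23 without background correction. The count of members at 1.5-fold or more was 8, and was 2 without background correction, 4 with an offset of 50 and 2 at a limit of 2-fold. With the offset of 50 the shares of all detected genes were 8.28% upward and 5.18% downward. Taking the median of detected probes turned WLS from 0.41 to -0.82 and FZD7 from -0.41 to 0.06, and median scaling turned FZD3 from -0.02 to 0.02. Without background correction the ratio of JAG2 was 0.51, of SFRP1 0.26, of TCF7L2 0.23 and of DVL3 1.11. Those values leave out the background fit together with the offset added in the same step. The parts of the fit and of the offset in these differences cannot be told apart. No paired analysis was possible because each group held 1 array.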

Other observations

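The members were also set beside their chromosomal neighbours, a comparison chosen after the ratios were seen: for each gene detected on both arrays, the median log2 ratio of up to 50 neighbouring protein-coding genes was taken. On chromosome 3, DVL3 (ratio 1.45) had a neighbour median of 0.20, HES1 (0.63) of 0.13, GSK3B (0.44) of 0.12 and CTNNB1 (0.59) of 0.0019. Each of these 4 ratios was further from 0 than the neighbour median. A median over many genes varies less than a single ratio, so no conclusion is drawn from this. HES4 (-0.58), on chromosome 1, had a neighbour median of -0.26 over 28 genes. AXIN2 (-0.15), on chromosome 17, had a neighbour median of -0.39, further below 0 than its own ratio. JAG2 (1.003) had a neighbour median of -0.0009 over 32 genes. The part of chromosomal position in these ratios was not tested.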
